A study of Mus musculus with 36 samples.

Results

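The genes described here are 35 genes of DNA replication, listed by symbol: the Mcm helicase and its loaders, the sliding clamp and its loader, the replicative polymerases, the enzymes that join DNA fragments, those that make DNA precursors, and factors that carry chromatin through replication. A gene was measured by a probe set annotated to its symbol alone, and where there were several the one with the highest mean over all arrays was taken. Of the 35 genes, 34 had such a probe set and all 34 passed the filter on low values, among 12983 genes tested of 18193 with a probe set of their own. Chaf1a, the large subunit of chromatin assembly factor 1, had none and is not described.

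A cell copies its DNA in S phase. Origins are first licensed, when the origin recognition complex, Cdc6 and Cdt1 load the Mcm ring onto DNA, and later fired, when Cdc45 and the GINS complex turn that ring into an active helicase. Polymerases then copy the strands behind it, and E2F transcription factors are known to drive most of these genes as cells enter S phase, while pocket proteins hold E2F in check. Heart muscle cells divide before birth and largely stop soon after it, so these genes are commonly read as a sign of proliferation in the developing heart.

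The samples came from C57BL/6 mouse embryos, with no mutation or treatment named in the labels, in 12 groups of 3 arrays. Ventricles and atria were sampled apart on embryonic days E12.5, E13.5 and E14.5, and again on E16.5 and E18.5. At E10.5 and E11.5 the sample was the middle part of the embryo with the heart, by the description, although the source field says whole heart. For the arrays titled E16.5 the description gives day 15.5, and the title was followed. Nothing in the labels says whether the 3 arrays of a group were separate litters or embryos, so p-values here reflect only how far these samples differ from one another, and that spread may be technical. In bulk tissue, fewer cells of a type and less RNA per cell cannot be told apart.

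Values were microarray intensities on a linear scale, and the 3 arrays of each group limit the precision. Array medians lay between 143.8 and 210.7, and arrays of a group correlated at 0.956 to 0.981. Summed intensities of 7 heart muscle markers were between 63409 and 121991 on all 36 arrays. They were 83095 to 86751 at E10.5 and 78219 to 79459 at E11.5, against 81003 to 96318 in E12.5 ventricles. How much tissue outside the heart the E10.5 and E11.5 samples held was not tested. The sum of 4 ventricular markers was at least 33202 on each ventricular array, and between 3363 and 15708 on 10 of 15 atrial arrays. The other 5 atrial arrays, E12.5 array 2, E14.5 arrays 1 and 2, E16.5 array 2 and E18.5 array 1, had 24041 to 39996. Differences below are on the log2(intensity + 17) scale with the standard error (SE) of a limma fit to all 36 arrays. An adjusted p below 0.05, over 27256 probe sets, is written as a rise or a fall.

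The RefSeq promoter windows of these genes held many E2F-type sites, and they are shown because E2F is the known regulator of the group. Windows on GRCm38.p6 ran from 250 bases before the start of transcription to 50 bases after it, and 30 of the 35 genes had one. The letters TTTCCCGC, TTTCGCGC, TTTGGCGC or TTTGCCGC, on either strand, were found in 12 of these 30 (40.0%), against 704 of 27025 genes in all (2.6%). The 12 genes held 18 sites, 11 of them before the start, and in Mcm5 and Mcm6 a pair of sites overlapped. The stretches below lie before the start and run 5′ to 3′ along the gene's strand, with the sites in capitals: Mcm6 at chr1:128359715-128359845 (minus strand), Mcm7 at chr5:138172011-138172078 (minus), Cdc6 at chr11:98907983-98908050 (plus), Orc1 at chr4:108579397-108579453 (plus), Rfc3 at chr5:151651209-151651248 (minus), Pola1 at chrX:93632256-93632323 (minus) and Uhrf1 at chr17:56304098-56304165 (plus).
Mcm6: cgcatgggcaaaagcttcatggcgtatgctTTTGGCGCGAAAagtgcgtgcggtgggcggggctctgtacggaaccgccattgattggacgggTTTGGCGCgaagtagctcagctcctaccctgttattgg
Mcm7: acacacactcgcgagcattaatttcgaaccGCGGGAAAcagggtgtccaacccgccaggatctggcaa
Cdc6: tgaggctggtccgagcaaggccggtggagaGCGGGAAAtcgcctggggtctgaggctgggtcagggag
Orc1: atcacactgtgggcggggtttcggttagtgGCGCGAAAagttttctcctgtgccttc
Rfc3: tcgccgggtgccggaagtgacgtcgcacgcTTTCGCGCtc
Pola1: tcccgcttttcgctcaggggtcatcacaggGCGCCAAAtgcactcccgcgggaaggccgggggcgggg
Uhrf1: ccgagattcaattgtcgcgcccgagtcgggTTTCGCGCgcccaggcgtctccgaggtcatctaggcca

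Other short motifs were counted in the same windows on both strands. The letters CCAAT stood in 19 of the 30 (63.33%, against 41.06% of all genes) and the GC box GGGCGG in 22 (73.33%, against 38.2%). The element TTTGAA, known from genes expressed late in the cell cycle, stood in 3 of 30, against 20.23% of all genes. Sites may share letters, and a match describes the sequence alone. Genes with and without an E2F-type site are set side by side here. The 12 genes with a site had a median log2 difference from E12.5 to E18.5 of -0.43 in ventricles and -0.62 in atria, and the 17 measured genes with a window and no site -0.36 and -0.62.

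From E12.5 to E18.5 the replication genes declined in both chambers. In ventricles 16 of 34 fell and none rose, where 16.0% of all probe sets fell and 12.7% rose. Their median was -0.42, against -0.05 over all probe sets tested. Of the 34 values 33 were below 0, where 55.7% of all probe sets were. In atria 27 of 34 fell and none rose, where 11.7% of all probe sets fell and 12.6% rose. The median was -0.62 against 0.01, and all 34 values were below 0, where 49.4% of all probe sets were. At E18.5 the median gene kept 74.2% of its E12.5 mean intensity in ventricles and 64.5% in atria.

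Of the 16 genes that fell in ventricles, 15 also fell in atria, and Tyms was the exception. Those that fell in atria and were not called in ventricles were Mcm2, Mcm6, Cdc6, Gmnn, Cdc45, Pcna, Rfc4, Prim1, Rrm1, Rrm2, Uhrf1 and Slbp. Mcm4, Orc1, Gins1, Pola1, Pold1 and Fen1 were called in neither chamber by their chosen sets. The arrays of E18.5 lay wholly below those of E12.5 for 24 of 34 genes in ventricles and 30 in atria, where 22.3% and 19.5% of all probe sets did so.

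**Figure D1:**
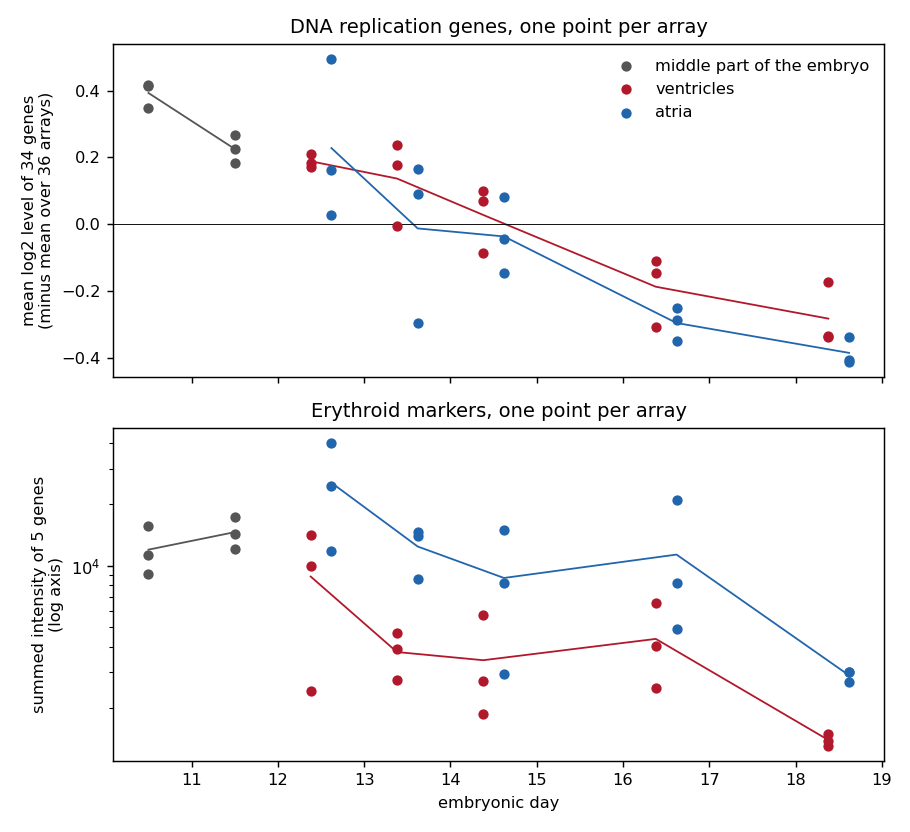
The upper panel plots the mean log2 level of the 34 genes on each array, after subtracting each gene's mean over 36 arrays, against embryonic day, and the lower panel the summed intensity of 5 erythroid markers on a log axis. Points are arrays and lines join group means; the replication genes go from a group mean of 0.39 at E10.5 to -0.28 in ventricles and -0.39 in atria at E18.5, and E12.5 atrial array 1 is the highest array in both panels.

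One E12.5 atrial array weighed on the atrial values. Array 1 of that group was the highest of the 3 for 29 of 34 genes and array 3 the lowest for 28, with mean levels of the 34 genes, relative to each gene's mean over all arrays, of 0.49, 0.16 and 0.03 on arrays 1 to 3. The sum of 5 erythroid markers (Alas2, Slc4a1, Epb42, Klf1 and Rhag) was 40175, 24660 and 11772 on the same arrays and 2672 to 3000 on the E18.5 atrial arrays. Without array 1 the atrial count was 20 of 34 and the median -0.49, and Mcm6, Mcm10, Gmnn, Cdc45, Rfc3, Rfc4 and Tk1 lost their calls. Without the 3 arrays of highest erythroid sum, which leaves 1 atrial array at E12.5, 2 genes fell, Cdt1 and Orc6, with a median of -0.41 and 32 of 34 values below 0.

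Ventricles gave a steadier picture as single arrays were left out, though not under other scalings and models, which are given at the end. The member level was 0.18, 0.17 and 0.21 on the E12.5 ventricular arrays and -0.34, -0.17 and -0.34 on those of E18.5, with no overlap. Their erythroid sums were 10003, 2430 and 14072 at E12.5 and 1305 to 1493 at E18.5. The sum of 6 fibroblast and matrix markers moved the other way, from between 20042 and 28593 to between 37829 and 43258 in ventricles, and from between 24298 and 36658 to between 44190 and 48925 in atria. In atria the sum of 6 foregut and lung markers was 474 to 1552 at E12.5 and 963.5 to 12894 at E18.5. That of 6 liver markers was 2698 to 19552 and then 1184.5 to 2375. That of 6 macrophage markers was 2764 to 5497 and then 5904 to 9052. In ventricles they were, in the same order, 1010 to 1574 and 749 to 3436, 472 to 1574.5 and 447 to 2481, and 3388 to 4209.5 and 3354 to 3743. What part cell composition had in the decline was not tested. The ventricular count was 14 to 16 when single arrays were left out, and 18 without the 5 atrial arrays with high ventricular markers, where the atrial count was 23.

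**Figure D2:**
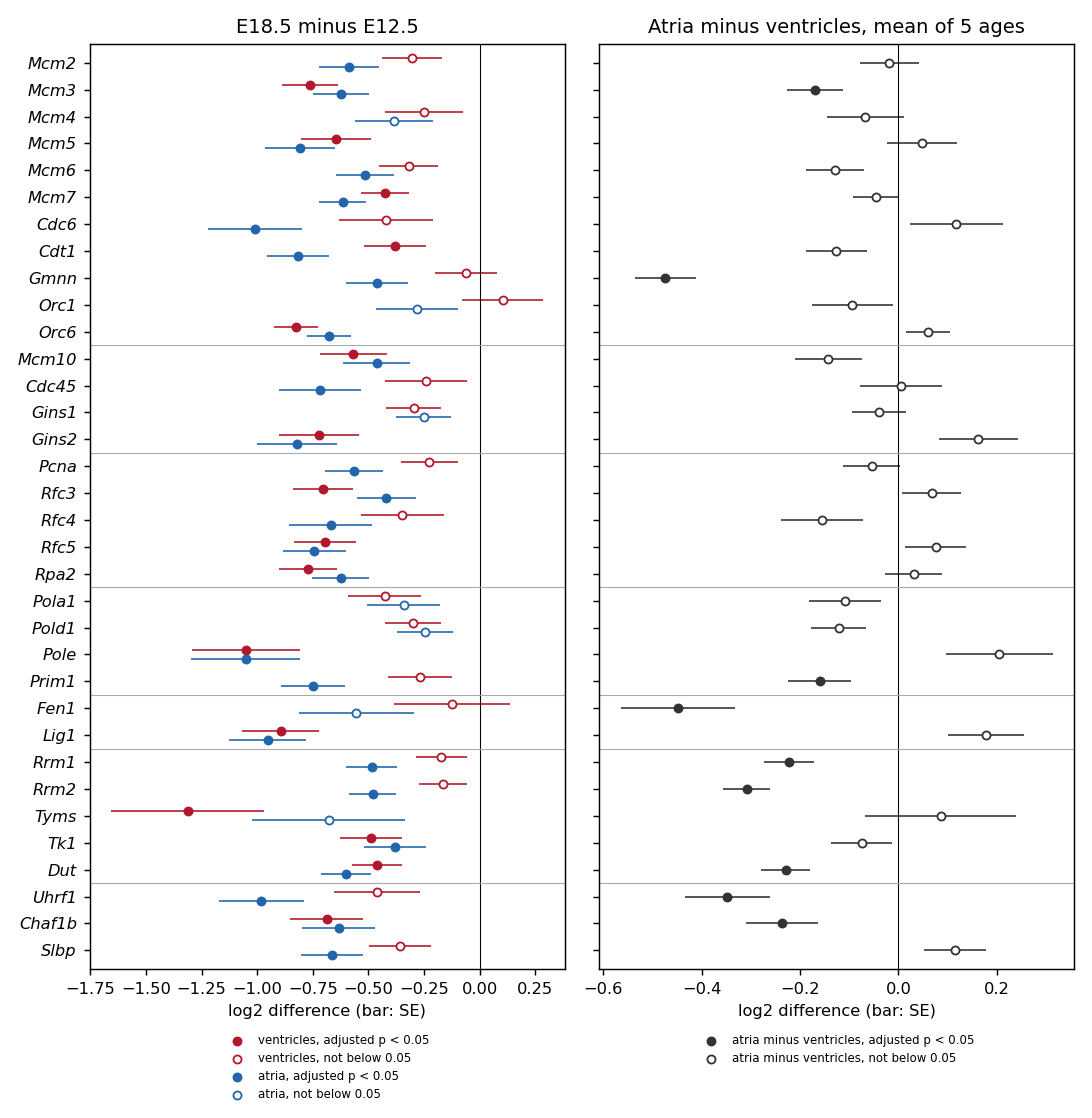
The left panel plots each gene's log2 difference between E18.5 and E12.5 in ventricles and atria and the right panel the difference between atria and ventricles averaged over 5 ages; bars are SE, filled points passed an adjusted p of 0.05, and grey lines part the roles from licensing at the top to chromatin at the bottom. In the left panel 33 of 34 ventricular and all 34 atrial points lie below 0; in the right panel Gmnn has the lowest value at -0.47.

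Among the 11 licensing genes, 5 fell in ventricles and 9 in atria. Over all probe sets 16.0% fell in ventricles and 11.7% in atria, the background for the count of every role below. Orc6, a subunit of the origin recognition complex, fell most in ventricles. Its intensities there were 857, 918 and 1001 at E12.5 and 467, 535 and 542 at E18.5, with a difference of -0.83 ± 0.10 (SE; adjusted p = 5.85e-07). In atria it went from 1058, 962 and 806 to 576, 576 and 585 (-0.68 ± 0.10, adjusted p = 1.98e-05), so that its E12.5 and E18.5 arrays stood apart in both chambers.

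The Mcm genes encode the 6 subunits of the replicative helicase ring. Mcm3 fell in ventricles from 3388, 3439 and 3447 to 1879, 2157 and 2011 (-0.76 ± 0.13, adjusted p = 4.35e-05), and in atria from 3352, 3268 and 2861 to 1892, 2069 and 2167 (-0.62 ± 0.13). Mcm5 (-0.64 ± 0.16) and Mcm7 (-0.43 ± 0.11) fell in ventricles as well. In atria Mcm2 (-0.59), Mcm5 (-0.81), Mcm6 (-0.51) and Mcm7 (-0.62) fell, while Mcm4 had -0.38 ± 0.17 (adjusted p = 0.109). Mcm2, Mcm4 and Mcm6 did not pass in ventricles, with -0.30, -0.25 and -0.32. A second probe set of Mcm2 (-0.66, adjusted p = 0.000219) and one of Mcm4 (-0.76, adjusted p = 0.000433) did fall there, and for Mcm4 in atria too (-0.67, adjusted p = 0.00206).

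Cdc6 and Cdt1 load the ring, and geminin, encoded by Gmnn, binds Cdt1 to prevent a second loading. Cdc6 fell in atria from 1046, 498 and 440 to 298, 281 and 310 (-1.01 ± 0.21, adjusted p = 0.000796), and the first of these arrays stood far above the others. Without that array Cdc6 still fell, by 0.63 (adjusted p = 0.0172). In ventricles Cdc6 had 414, 406 and 360 at E12.5 and 275, 302 and 291 at E18.5, which do not overlap (-0.42 ± 0.21, adjusted p = 0.139). Cdt1 fell in ventricles by 0.38 (adjusted p = 0.038), a call lost in 8 of 21 alternatives, and in atria by 0.82 (adjusted p = 9.97e-05).

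Gmnn and Orc1 changed least among the licensing genes in ventricles. Gmnn read 1846, 2205 and 1678 at E12.5 and 1669, 2064 and 1750 at E18.5, with overlapping groups and a difference of -0.06 (95% interval -0.34 to 0.22). In atria it fell from 2529, 1583 and 1366 to 1383, 1326 and 1136 (-0.46 ± 0.14, adjusted p = 0.0152). Orc1, the ATPase subunit of the origin recognition complex, read 421, 405 and 469 in E12.5 ventricles and 437, 348 and 656 at E18.5 (0.10 ± 0.18, adjusted p = 0.72). A lower second probe set of Orc1 had -0.35 in ventricles (adjusted p = 0.309) and fell in atria (-0.67, adjusted p = 0.046), and over the 36 arrays the sets correlated at 0.00285.

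**Figure D3:**
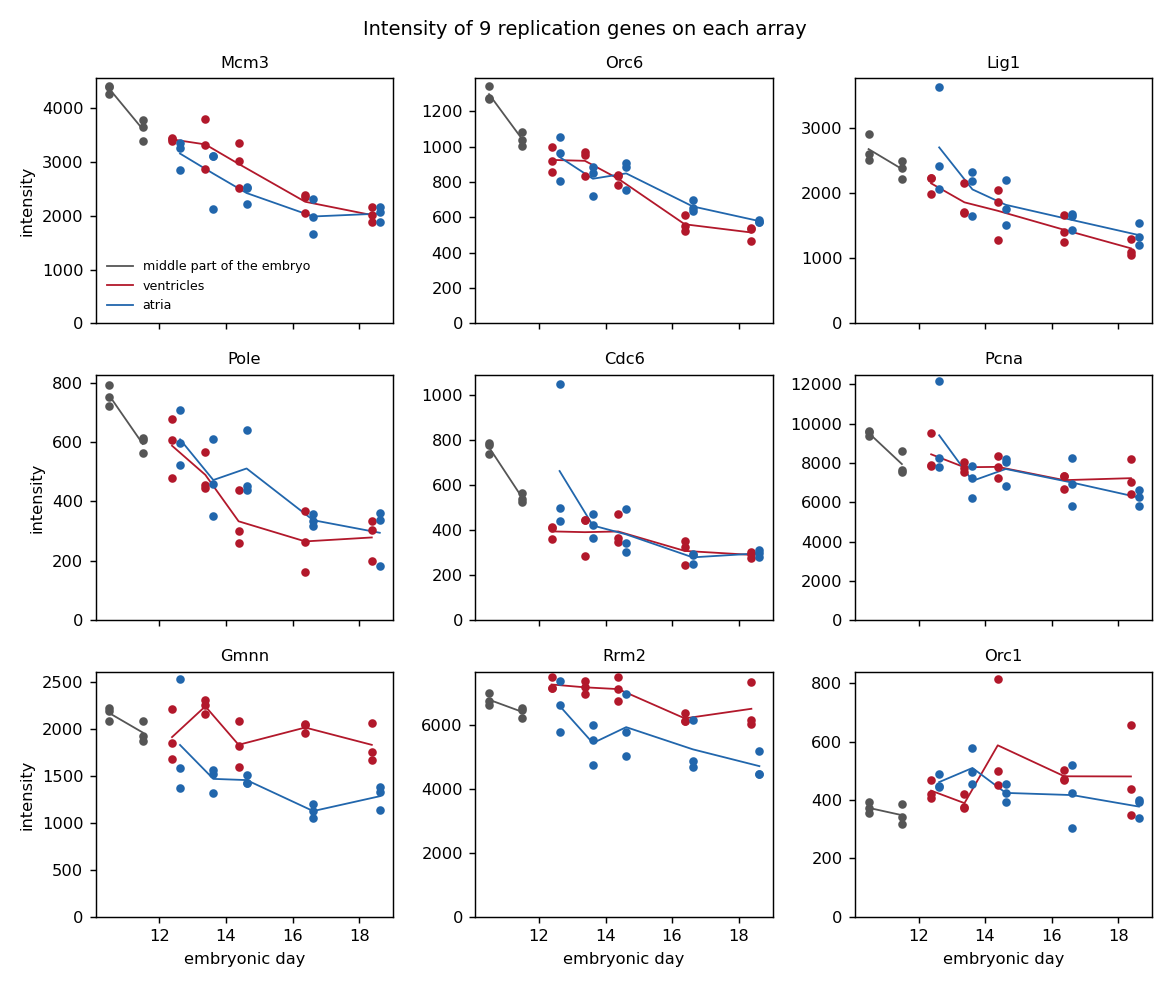
Intensity (linear axis from 0) of 9 genes on each array against embryonic day, with lines through group means. Ventricles, atria and the E10.5 and E11.5 samples, marked as the middle part of the embryo, have separate colours. Mcm3, Orc6, Lig1 and Pole decline in both chambers, the Gmnn arrays of the 2 chambers do not overlap from E13.5 on, the atrial means of Rrm2 lie below the ventricular ones at all 5 ages, and Orc1 shows no common direction.

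Of 4 helicase activation genes, 2 fell in ventricles and 3 in atria. Gins2, a subunit of the GINS complex, fell in ventricles from 1627, 1377 and 1462 to 754, 1146 and 826 (-0.72 ± 0.18, adjusted p = 0.0029) and in atria from 1540, 1680 and 1441 to 855, 959 and 805 (-0.82 ± 0.18). Mcm10, which helps to start the helicase, fell by 0.57 in ventricles and by 0.46 in atria. Its atrial call was lost in 8 of 21 alternatives. Cdc45 read 456, 443 and 623 in E12.5 ventricles and 380, 447 and 440 at E18.5 (-0.24 ± 0.19, adjusted p = 0.358), with overlapping arrays, and fell in atria from 817, 596 and 493 to 351, 371 and 393 (-0.72 ± 0.19). Gins1, another GINS subunit, passed in neither chamber (-0.30 and -0.25).

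Of 5 genes of the clamp, its loader and single-strand binding, 3 fell in ventricles and all 5 in atria. Rpa2, a subunit of the protein that coats single-stranded DNA, fell in ventricles from 1148, 1232 and 1346 to 700, 758 and 699.9 (-0.77 ± 0.13, adjusted p = 4.69e-05), and in atria by 0.62. The clamp loader subunits Rfc3 (-0.70 ± 0.13) and Rfc5 (-0.69 ± 0.14) fell in ventricles, and Rfc5 fell in atria from 2061, 1358 and 1398 to 858, 1036 and 919 (-0.74 ± 0.14, adjusted p = 0.000315). Rfc3 fell by 0.42 in atria, from 657, 641 and 703 to 459, 494 and 532. Pcna, the sliding clamp itself, read 7913, 7868 and 9544 in E12.5 ventricles and 7044, 8208 and 6429 at E18.5, which overlap (-0.23 ± 0.13, adjusted p = 0.204). In atria it fell from 12157, 8262 and 7816 to 6623, 5825 and 6283 (-0.56 ± 0.13, adjusted p = 0.00189).

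Of 4 polymerase and primase genes, 1 fell in ventricles and 2 in atria. Pole, the catalytic subunit of the leading-strand polymerase, fell in ventricles from 677, 608 and 479 to 303, 334 and 199 (-1.05 ± 0.24, adjusted p = 0.00162) and in atria from 707, 598 and 524 to 184, 339 and 361 (-1.05 ± 0.24, adjusted p = 0.00207). Prim1, the catalytic subunit of primase, read 1965, 1945 and 2090 in E12.5 ventricles and 1595, 1891 and 1514 at E18.5 (-0.27 ± 0.14, adjusted p = 0.174). In atria Prim1 fell from 3221, 1993 and 1718 to 1288, 1379 and 1284 (-0.75 ± 0.14, adjusted p = 0.000356). Pola1, of the priming polymerase, had -0.43 (adjusted p = 0.0513) in ventricles and -0.34 (adjusted p = 0.136) in atria. Pold1, of the lagging-strand polymerase, kept the largest share of its E12.5 level in atria, 84.0%, and passed in neither chamber. A second Pold1 set fell in ventricles (-0.58, adjusted p = 0.00937).

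Lagging-strand fragments are trimmed by the flap endonuclease Fen1 and sealed by DNA ligase 1. Lig1 fell in ventricles from 2230, 1990 and 2244 to 1101, 1304 and 1060 (-0.89 ± 0.17, adjusted p = 0.000261) and in atria from 3641, 2419 and 2066 to 1208, 1541 and 1326 (-0.95 ± 0.17, adjusted p = 0.000215). At E18.5 it kept 53.6% of its E12.5 mean in ventricles and 50.2% in atria. The chosen set of Fen1 passed in neither chamber, with -0.13 ± 0.26 in ventricles and -0.55 ± 0.26 in atria, and its arrays overlapped in both. The other Fen1 set fell in atria (-0.74, adjusted p = 0.0107) and had -0.35 in ventricles (adjusted p = 0.227).

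Of 5 nucleotide supply genes, 3 fell in ventricles and 4 in atria. Tyms, thymidylate synthase, gave the largest ventricular fall, from 219, 212.1 and 189 to 100.4, 90.3 and 40.7 (-1.31 ± 0.34, adjusted p = 0.00455). The size of this fall is imprecise, since the Tyms probe set exceeded the median of all values, 171.8, on 12 arrays only. The later ventricular intensities, 100.4, 90.3 and 40.7, lie below that median. The atrial ones, 266, 173 and 170.0 against 113, 153 and 93.6, did not overlap either but did not pass (-0.68 ± 0.34, adjusted p = 0.156). The other probe set of Tyms passed in neither chamber, with -0.45 (adjusted p = 0.138) in ventricles and 0.10 (adjusted p = 0.791) in atria. Dut, which breaks down dUTP, fell by 0.46 and 0.60 in ventricles and atria, but its other probe set had -0.21 (adjusted p = 0.172) and -0.02 (adjusted p = 0.922). Tk1, thymidine kinase 1, fell by 0.49 in ventricles and by 0.38 in atria, where the call (adjusted p = 0.046) was lost in 11 of 21 alternatives. Ribonucleotide reductase makes deoxynucleotides from a large subunit, Rrm1, and a small one, Rrm2. Both fell in atria (-0.49 ± 0.12 and -0.48 ± 0.11), and did not pass in ventricles, with -0.17 and -0.16. A second Rrm1 set did fall there (-0.43, adjusted p = 0.00648).

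Of 3 chromatin genes, 1 fell in ventricles and all 3 in atria. Chaf1b, the middle subunit of chromatin assembly factor 1, fell in ventricles from 564, 545 and 499 to 325, 386 and 275 (-0.69 ± 0.16, adjusted p = 0.00213), and in atria from 505, 467 and 413 to 285, 335 and 256 (-0.63 ± 0.16). Uhrf1, which guides DNA methylation onto new strands, fell in atria from 3165, 1840 and 1592 to 971, 1220 and 996 (-0.98 ± 0.19, adjusted p = 0.00046) and had -0.46 ± 0.19 in ventricles (adjusted p = 0.0731). Slbp binds the ends of histone messages. It read 2120, 2154 and 2303 in E12.5 ventricles and 1711, 1838 and 1573 at E18.5 without overlap (-0.36 ± 0.14, adjusted p = 0.052), and fell in atria by 0.66.

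The decline was spread over the ages, and single intervals gave few calls. Median shares of the E12.5 ventricular mean were 97.3%, 90.5%, 79.2% and 74.2% at the 4 later ages in order. In atria they were 82.7%, 83.4%, 70.2% and 64.5%. The atrial arrays of E13.5 were uneven, with array 2 the lowest of its group for 33 of 34 genes. In ventricles the medians of successive intervals were -0.15 from E12.5 to E14.5, -0.22 to E16.5 and -0.08 to E18.5. In the second of these Orc6 alone fell (-0.53 ± 0.10, adjusted p = 0.0103), where 0.455% of all probe sets fell and 0.528% rose. The first interval gave 0 calls in limma, with 3 genes lower and 1 higher at an unadjusted p under 0.05. Of all probe sets, 0.0550% fell and 0.00734% rose in it. The last gave 0 calls, with 2 genes at an unadjusted p under 0.05, where 0.125% of all probe sets fell and 0.0917% rose.

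The same intervals in atria had medians of -0.25, -0.25 and -0.14. Prim1 alone fell between E12.5 and E14.5 (-0.55 ± 0.14, adjusted p = 0.043), where 0.844% of all probe sets fell and 1.13% rose, and without single arrays the count for this interval was 0 to 7. From E14.5 to E16.5 no gene was called in limma, with 10 at an unadjusted p under 0.05. Of all probe sets, 0.110% fell and 0.216% rose in it. All 34 values were below 0, where 56.2% of all probe sets were. The genes vary together across arrays, so these signs are not separate observations. From E16.5 to E18.5 no gene was called, with 3 at an unadjusted p under 0.05 and 0.158% of all probe sets falling and 0.158% rising.

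Atria and ventricles differed for fewer of the genes. Averaged over the 5 ages, 9 of 34 were lower in atria, near the background of 21.5% of all probe sets lower. None was higher, where 20.9% of all probe sets were, and the median was -0.07. The 9 lower genes were Gmnn, Rrm2, Fen1, Dut, Rrm1, Uhrf1, Chaf1b, Mcm3 and Prim1. Of 30 other probe sets of the replication genes, 14 were lower and 1 was higher in atria, so the count depends on the probe sets. Mcm3 had -0.17 ± 0.06 (adjusted p = 0.0167), and the call of Prim1 (-0.16 ± 0.06, adjusted p = 0.0451) was lost in 28 of 46 alternatives.

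Geminin had the largest chamber difference, -0.47 ± 0.06 (adjusted p = 3.3e-07), among the 34 genes. By age it was -0.11, -0.61, -0.32, -0.83 and -0.51 (each ± 0.14), and it passed at all ages but E12.5 and E14.5. At E16.5 the ventricular arrays read 1954, 2037 and 2044 and the atrial arrays 1120, 1203 and 1049, and at E18.5 1669, 2064 and 1750 against 1383, 1326 and 1136. The chambers did not overlap at E13.5, where ventricles read 2154, 2256 and 2302 and atria 1561, 1318 and 1519. At E12.5 they did, since atrial array 1 read 2529.

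Rrm2, the regulated subunit of ribonucleotide reductase, had -0.31 ± 0.05 (adjusted p = 5.18e-06). By age it was -0.15, -0.41, -0.27, -0.25 and -0.46 (each ± 0.11), and it passed at E13.5 and E18.5. At E18.5 ventricles read 6013, 7329 and 6161 and atria 5188, 4475 and 4463, without overlap, while at E14.5 and E16.5 single atrial arrays reached into the ventricular range. Its other probe sets gave -0.41 and -0.47 in the mean over ages, each ± 0.05 (adjusted p = 9.47e-09 and adjusted p = 3.83e-09). Rrm1 had -0.22 ± 0.05 (adjusted p = 0.000813), with -0.29 (adjusted p = 4.11e-05) and -0.15 (adjusted p = 0.376) for its other sets. Dut had -0.23 ± 0.05 (adjusted p = 0.000437) and -0.22 for its other set. Uhrf1 had -0.35 ± 0.09 (adjusted p = 0.00162), with -0.31 for its other set, and Chaf1b -0.24 ± 0.07 (adjusted p = 0.0101).

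**Figure D4:**
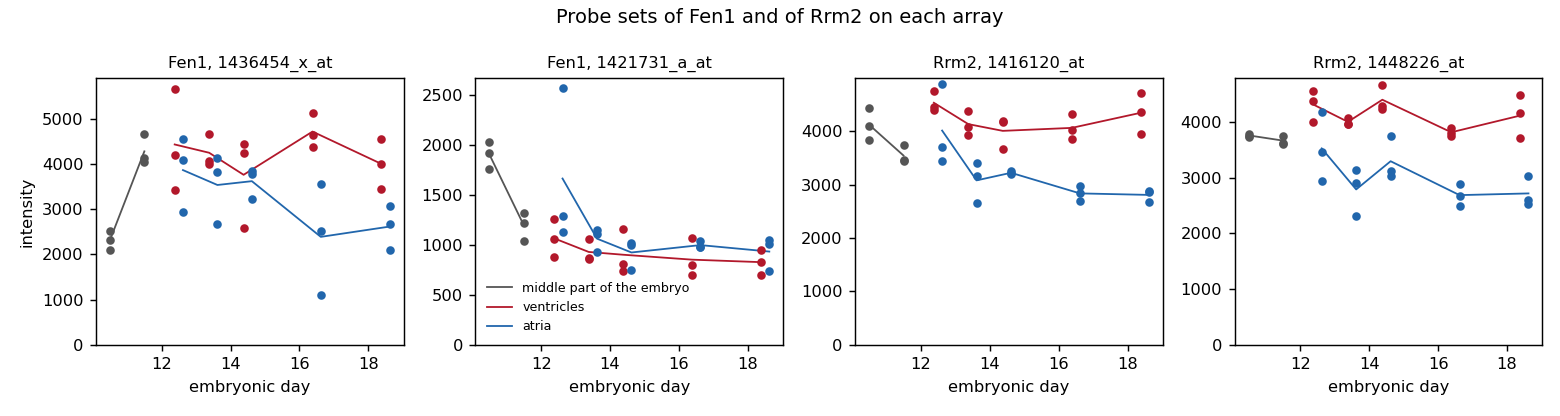
Intensity (linear axis from 0) on each array against embryonic day for a pair of Fen1 probe sets and for a pair of Rrm2 probe sets other than the one used elsewhere. The Rrm2 sets are lower in atria in a like manner, while the Fen1 sets differ in direction between chambers and between E10.5 and E11.5.

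Fen1 depends on the probe set. The suffix of its chosen set, _x_at, marks probes that may match other transcripts, and the chosen sets of Mcm4, Mcm5 and Rrm2 carry it too. Those of Mcm2, Mcm3, Mcm7 and Gins2 end in _s_at, which marks probes that several transcripts may share. The chosen Fen1 set was lower in atria in the mean over ages (-0.45 ± 0.12, adjusted p = 0.00246). This was most so at E16.5 (-1.13 ± 0.26), where ventricles read 4383, 5131 and 4643 and atria 2509, 3555 and 1102. The other set was higher in atria (0.24 ± 0.10, adjusted p = 0.0417). From E10.5 to E11.5 the chosen set went from 2516, 2104 and 2319 to 4666, 4140 and 4037, while the other went from 2031, 1759 and 1913 to 1315, 1042 and 1219. The pair correlated at -0.28 over the 36 arrays. With the mean of both sets Fen1 had -0.10 (adjusted p = 0.243). No direction between chambers can be given for this gene.

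At single ages the chamber comparison gave few lower calls, not far from the background, and no higher ones. At E12.5 limma called 0 genes, with 2 higher at an unadjusted p under 0.05, where 5.27% of all probe sets were lower and 4.40% higher. At E13.5 3 were lower, Gmnn, Rrm2 and Dut (-0.35 ± 0.11, adjusted p = 0.0394), where 6.27% of all probe sets were lower and 5.87% higher. At E14.5 0 were called, with 4 lower and 1 higher at an unadjusted p under 0.05, where 2.38% of all were lower and 3.80% higher. At E16.5 4 were lower, Gmnn, Fen1, Rrm1 (-0.36) and Uhrf1 (-0.56), where 8.32% were lower and 8.55% higher. At E18.5 2 were lower, Gmnn and Rrm2, where 8.53% were lower and 11.0% higher.

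Whether the decline differed between the chambers was tested directly, as the atrial change from E12.5 to E18.5 minus the ventricular one. No gene passed in limma, with 3 lower at an unadjusted p under 0.05, Prim1, Cdt1 and Rrm2, where 1.12% of all probe sets were lower and 2.66% higher. Prim1 had -0.48 (95% interval -0.90 to -0.07, adjusted p = 0.188) and Cdt1 -0.44 (95% interval -0.83 to -0.04, adjusted p = 0.224). The median of the 34 was -0.15, and it ranged from -0.28 to -0.02 as single arrays were left out. The larger number of calls in atria is therefore not shown to be a larger decline.

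From E10.5 to E11.5, in samples that the description calls the middle part of the embryo and the source field whole heart, limma called 0 of the 34 genes. At an unadjusted p under 0.05, 6 were lower and 1 higher, where limma called 0.227% of all probe sets lower and 0.928% higher. Of the 34 values 33 were below 0, where 47.2% of all probe sets were, with a median of -0.19 against 0.01 over all probe sets. The genes vary together across arrays, so their signs are not separate observations. Orc6 read 1272, 1278 and 1343 at E10.5 and 1084, 1006 and 1036 at E11.5 (-0.31 ± 0.10, adjusted p = 0.125), and Cdc6 786, 738 and 775 and then 565, 526 and 536 (-0.49 ± 0.21, adjusted p = 0.323). Neither pair of groups overlapped. The highest of the 12 group means was that of E10.5 for 26 of the 34 genes. The lowest was in E18.5 atria for 13, E16.5 atria for 9 and E18.5 ventricles for 8.

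Probe sets not chosen gave similar medians for the decline, while 16 of the 30 tested correlated above 0.8 with the chosen set of their gene. The 34 genes had 74 probe sets, and 26 genes had more than 1. Of 30 other sets that were tested, 13 fell in ventricles and 21 in atria, and none rose. Over all probe sets 16.0% fell in ventricles and 11.7% in atria. Of the 30 sets, 29 and 28 were below 0 in ventricles and atria, where 55.7% and 49.4% of all probe sets were. Their medians were -0.41 and -0.63. Between chambers, in the mean over ages, 14 of the 30 were lower in atria and 1 was higher, where 21.5% of all probe sets were lower and 20.9% higher. A second, dimmer set of Cdc45 had 0.46 in ventricles and 0.56 in atria (adjusted p = 0.303 and adjusted p = 0.213), and was lower in atria in the mean over ages (-0.52 ± 0.14, adjusted p = 0.00417), unlike the chosen set at 0.01.

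A further list of 53 replication genes, which held the other subunits and the factors around the fork, declined as well. Of 51 measured, 25 fell and none rose in ventricles, where 16.0% of all probe sets fell and 12.7% rose. In atria 34 fell and none rose, where 11.7% of all probe sets fell and 12.6% rose. The medians were -0.31 in ventricles and -0.44 in atria, against -0.05 and 0.01 over all probe sets. The largest ventricular falls were in Chtf18, of an alternative clamp loader (-1.36 ± 0.31), the nuclease and helicase Dna2 (-1.09 ± 0.16), the firing kinase Cdc7 (-0.81 ± 0.14), the primase subunit Prim2 (-0.80 ± 0.18), the fork protection gene Timeless (-0.79 ± 0.16) and Dctd, of deoxynucleotide supply (-0.74 ± 0.12). All 6 fell in atria too, by 0.69 to 1.15. Chtf18 read 209, 250.2 and 249.6 in E12.5 ventricles and 84.4, 109 and 57.5 at E18.5. The E18.5 values lie below the median of all values, 171.8, which its probe set exceeded on 21 of 36 arrays. The size of this fall is therefore imprecise. Values above 0 in ventricles came from Orc4 (0.24, adjusted p = 0.108), Mcmbp (0.11), Rrm2b (0.10), Rpa1 (0.04) and Pold4 (0.03), and none of these passed. Between chambers 8 of the 51 were lower and 12 higher in atria in the mean over ages, shares near the background of 21.5% and 20.9% of all probe sets. Prim2 was higher in atria (0.42 ± 0.08, adjusted p = 0.00011). The chosen set of Prim1, its partner in primase, was lower, a call lost in 28 of 46 alternatives. The other Prim1 set had -0.07 (adjusted p = 0.517) in limma.

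Of 16 E2F and pocket protein genes, 7 fell and 1 rose in each chamber. Over all probe sets 16.0% fell and 12.7% rose in ventricles, and 11.7% fell and 12.6% rose in atria, so 1 rise among 16 does not exceed the background. The gene of the 16 that rose was Rbl2, which encodes the pocket protein p130 of resting cells. It read 488, 580.1 and 412 in E12.5 ventricles and 659.5, 658 and 677 at E18.5 (0.43 ± 0.13, adjusted p = 0.0128), and 455, 449.0 and 547 against 727, 766 and 725 in atria (0.60 ± 0.13, adjusted p = 0.00117). E2f1 (-0.48 and -0.67), E2f2 (-0.99 and -1.92), E2f7 (-0.44 and -0.59), E2f8 (-0.83 and -0.69) and the pocket protein gene Rbl1 (-0.26 and -0.38) fell in ventricles and atria. E2f3 and E2f5 were also called in ventricles, and Tfdp1 and the cyclin gene Ccne1 in atria, and no chamber difference in these changes passed. E2f2 read 1750, 956 and 591 on the E12.5 atrial arrays, in the order of their erythroid sums given above, and the part of erythroid cells in this fall was not tested.

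Between chambers, 5 of the 16 E2F and pocket protein genes were lower and 4 higher in atria in the mean over ages, where 21.5% and 20.9% of all probe sets were. E2f2 (1.001 ± 0.167), E2f5 (0.54 ± 0.07), E2f8 (0.65 ± 0.07) and Tfdp2 (0.34 ± 0.09) were higher in atria. E2f1 (-0.25 ± 0.06), E2f3, the pocket protein gene Rb1 (-0.37 ± 0.10), Lin54 and Ccne1 were lower.

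The replication genes followed one another across the arrays. Over the 12 group means, the correlation of a gene with the mean of the other 33 had a median of 0.905 and was above 0.8 for 28 of the 34 genes. It was highest for Mcm7 (0.988), Rfc4 (0.975) and Mcm3 (0.972), and lowest for Fen1 (0.151) and Orc1 (-0.207). After group means were removed, so that only the spread among arrays of a group was left, the mean correlation over the 561 pairs of genes was 0.397 over 36 arrays, and 497 pairs were above 0. Over all pairs of tested probe sets the mean was 0.00823. The points of all these correlations share their arrays and the scaling of each array.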

How the data were processed

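Mouse heart RNA was measured on 36 Affymetrix arrays in 12 groups of 3, read from the sample titles. The deposited values are intensities on a linear scale, and each array holds 45101 probe sets; the authors' method of summarising and scaling probes is not stated in the labels used here. Their 2% trimmed mean was 500.002 to 500.003 on each array. No column was without a sample. Before log2, 17 was added to each value as a pseudocount (10% of the overall median, 171.8), and probe sets above that median on at least 3 arrays were tested, 27256 after 64 control sets were left out. limma 3.58.1 in R 4.3.3 fitted the 12 group means with an intensity trend (24 residual and 5.68 prior degrees of freedom), two-sided, with Benjamini-Hochberg adjustment over all 27256. The fit was tested on simulated data. The members and lists were chosen with earlier results of these data known. Any member could be named, with array values for those of largest and smallest change in each role; of the other replication genes, the 6 largest ventricular falls and all values of opposite sign were named. E2F genes were named after their values were seen. Sequences are from RefSeq (GRCm38.p6). Alternatives were another scaling, pseudocount, filter or model, a replicate block, and leaving out arrays. In 15 same-day, same-number pairs of chambers, correlations were -0.335 to 0.159 and 1 exceeded 0.1. No sign of pairing by number was seen, but groups of 3 arrays cannot exclude it.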

Additional observations from a re-analysis of the deposited data

How the results depend on the processing

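Under the settings run, every gene called in the decline from E12.5 to E18.5 kept its direction. Counts under other settings, here and above, are of the replication genes alone. The share of all probe sets called under the same setting is not set beside them. A shift in a count may therefore not be particular to these genes. Cdc45 between chambers was 0.01 with the chosen probe set and -0.26 (adjusted p = 0.00727) with the mean of probe sets. Some values that passed under no more than a few settings also took both signs over them: Gins1 (-0.41 to 0.07) and Mcm4 (-0.58 to 0.005) in atria, and Gins2 between chambers (-0.05 to 0.20). Array weights gave 26 genes lower in ventricles and 3 lower in the difference between chambers. Leaving out the 3 arrays of highest erythroid sum, which was chosen after seeing the data, left 2 atrial falls, with 1 atrial array remaining at E12.5 that is assumed to vary like the other groups. Ventricular falls were 21 with quantile normalization, 12 with median centring and 22 with the mean of probe sets. The replicate number as a block gave 16 in ventricles and 26 in atria, and as a block within day 16 and 27. Whether samples with the same number share a source is not known.

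For the mean of 5 ages between chambers, 1 gene was higher without the 2 arrays of highest liver sum and 2 without the atrial arrays with high ventricular markers, both added after seeing the data. At E12.5, 1 was lower with array weights, and 1 higher with the strict filter, with the mean of probe sets, without the liver arrays and without the ventricular-marker arrays. At E13.5, 5 were lower with the mean of probe sets. At E14.5, 1 was lower with quantile normalization, 2 with the mean of probe sets and 1 without the erythroid arrays. At E16.5, 2 were lower with median centring and 2 without the liver arrays. At E18.5, 4 were lower with quantile normalization, 4 with the strict filter, 9 with array weights (and 1 higher), 4 with the mean of probe sets, 8 with the compared groups alone and 7 without the erythroid arrays.

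Over single intervals, array weights gave 1 fall in ventricles from E12.5 to E14.5 and 4 from E14.5 to E16.5, where median centring and the compared groups alone gave 0. In atria from E12.5 to E14.5 array weights gave 2, and 0 came from median centring, no filter, no intensity trend, the mean of probe sets, the compared groups alone and the sets without erythroid, liver or ventricular-marker arrays. From E14.5 to E16.5 in atria 1 fell without the erythroid arrays. From E10.5 to E11.5, array weights gave 6 lower and 1 higher, the compared groups alone 11 lower and 1 higher, and the set without erythroid arrays 1 higher. The cause of these shifts was not tested.

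Leaving out single arrays gave 14 to 16 falls in ventricles and 20 to 27 in atria from E12.5 to E18.5, and 0 to 1 for the difference between chambers. Between chambers, 8 to 12 were lower and 0 to 2 higher in the mean of 5 ages. By age the lower counts were 0 to 0 at E12.5 (0 to 2 higher), 1 to 3 at E13.5, 0 to 1 at E14.5, 2 to 5 at E16.5 (0 to 1 higher) and 1 to 3 at E18.5. Intervals in ventricles gave 0 to 0, 0 to 2 and 0 to 0, those in atria 0 to 7, 0 to 1 and 0 to 0, and E11.5 against E10.5 gave 0 to 0.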
